A study of Mus musculus with 5 samples.

Results

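The 33 mouse genes described here belong to the p53 pathway: p53 itself, its feedback regulators, and targets that arrest the cell cycle, kill or recycle cells, or repair DNA. They were chosen by gene symbol, and an array probe stood for a gene when its RefSeq accession, without version, belonged to that gene. All 33 were found among the 22907 genes that could be named on the array, each by the probe with the highest mean over 5 arrays. They fall into 4 classes by main known role: 7 genes for p53 and its feedback, 7 for arrest and growth control, 14 for apoptosis and autophagy, and 5 for repair and antioxidant defence. The study measured RNA of cultured B16F1 cells, a mouse melanoma line, to relate Tmsb4x, the gene of the actin monomer-binding peptide thymosin β4, to TGF-β signalling and to MRTF, an actin-regulated coactivator of transcription.

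Each of the 5 cultures gave 1 array. A pair of arrays came from Tmsb4x knockout cells treated with TGF-β1, each from a separate clone, called clone 1 and clone 2 here. The other 3 came from wild-type B16F1 cells given TGF-β1 with CCG1423, an inhibitor of MRTF signalling, TGF-β1 alone, or vehicle (n = 1 array each). The dose of TGF-β1 was 10 ng/ml and that of CCG1423 was 10 µM, and treatment lasted 2 days, although the vehicle sample's own labels give no time. The sample labels call the edited cells knockout and the design text calls them knockdown. The treatment field of the CCG1423 sample names CCG1423 alone, whereas its title and description name both agents, and it was taken as both. Each knockout line is 1 clone, and nothing in the labels tells whether the cultures were independent, so a p-value here covers only the spread among these samples, which may be technical.

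The transcription factor p53 is held low in unstressed cells by Mdm2, which tags it for degradation, and by Mdm4, which masks its activating domain. Damage and other stresses release it, and it then binds DNA as a tetramer, at a pair of short half-sites, and activates genes that stop the cycle, repair DNA or trigger cell death. Several of these genes also answer to other stress pathways, and Mdm2, Ppm1d and Ccng1 feed back on p53.

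Levels below are log2 processed signals minus the 75th percentile of the array, so a level of 0 equals that percentile; levels of different probes were not compared. The share of probes well above background ran between 48.2% and 53.8% per array, and 0 spots were saturated. All 5 arrays share a slide and a scan, so no batch could be tested. All 7 melanocyte markers were well above background on every array, with a summed linear level of 2658 in clone 1, 2691 in clone 2, 1750 with TGF-β1 plus CCG1423, 2324 with TGF-β1 and 2234 with vehicle. Of 5 fibroblast, 5 epithelial and 4 endothelial markers, 0 were above background on every array, and of 6 immune markers 3 were (Itgam, Csf1r and Cd3e), while the pan-leukocyte gene Ptprc was above it on 0 arrays. Tmsb4x itself had levels of 5.44 in clone 1, 4.28 in clone 2, 6.79 with TGF-β1 plus CCG1423, 7.12 with TGF-β1 and 5.05 with vehicle. Its probe was thus lower in both clones than in TGF-β1-treated wild-type cells (limma adjusted p = 0.0858) yet well above background in both, and where the edit lies relative to the probe is not given in the sources used here. In bulk samples like these, fewer cells that express a gene and less RNA per cell cannot be told apart.

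Since p53 acts through sites in DNA, promoter sequences of the members are shown first. RefSeq (GRCm38.p6) windows covering the 250 bases before a transcription start were available for 25 of the 33 genes, in 33 windows. The p53 half-site, a 10-letter motif with purines on the left, a central C and G around A or T, and pyrimidines on the right, occurred in 12 of the 33 windows (36.4%), and in 7.13% of the 32851 windows of all genes. It was searched as an exact match to the consensus, which reads alike on both strands, and a match is a description of the letters, not of binding. All matches of 6 genes are printed, 2 in Cdkn1a and 1 in each of the others. These 6 had the largest knockout differences among the 12 genes with a match. Sites are given in the direction of transcription, with the half-site in capitals and 10 bases on either side.
Cdkn1a, first (chr17:29090896-29090925, plus strand): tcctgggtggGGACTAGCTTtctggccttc
Cdkn1a, second (chr17:29090918-29090947, plus strand): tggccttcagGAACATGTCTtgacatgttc
Ccng1 (chr11:40755452-40755481, minus strand): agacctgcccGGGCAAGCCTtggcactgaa
Bax (chr7:45467080-45467109, minus strand): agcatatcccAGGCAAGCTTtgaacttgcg
Gadd45a (chr6:67037428-67037457, minus strand): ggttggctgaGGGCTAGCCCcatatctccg
Mdm2 (chr10:117710925-117710954, minus strand): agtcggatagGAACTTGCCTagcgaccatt
Sesn1 (chr10:41887256-41887285, plus strand): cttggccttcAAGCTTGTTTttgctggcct

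In these 6 windows the half-site began 73 and 51 bases before the start in Cdkn1a, 185 in Ccng1, 201 in Bax, 40 in Gadd45a, 186 in Mdm2 and 173 in Sesn1. Cdkn1a and Sesn1 each also had another window, before a different start, without a match. The other 6 genes with a match were Aen, Ei24, Polk, Ppm1d, Rps27l and Trp53. Gadd45a, which differed most with CCG1423, is shown with its whole window (chr6:67037408-67037657, minus strand), the half-site again in capitals.
Gadd45a window: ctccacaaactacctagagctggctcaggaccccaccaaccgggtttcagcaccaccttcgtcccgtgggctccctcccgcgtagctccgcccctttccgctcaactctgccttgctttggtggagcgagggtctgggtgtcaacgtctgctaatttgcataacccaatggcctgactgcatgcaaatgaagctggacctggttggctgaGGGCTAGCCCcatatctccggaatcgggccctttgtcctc

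Of the other motifs searched on both strands, none of the 33 windows held the amino acid response motif TGATGNAAN (3.44% of all windows) or the CHOP motif TGCAAT (7.32%). The FoxO motif GTAAACA was found in 3 (Bbc3, Eda2r and Mdm2; 3.17% of all windows), the AP-1 motif TGANTCA in 2 (Fas and Mdm4; 6.75%), and the TATA motif TATAAA in 2 (Eda2r and Trp53; 12.4%). The CArG box, bound by SRF, was found in 1 (Tigar; 1.47% of all windows). The members' windows were rich in G and C, with a median of 64.8%, against 52.4% for all windows. Among these motifs, the amino acid response motif can include the CHOP motif and the CArG box can include the TATA motif.

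Of the 33 genes, 29 were well above background on all 5 arrays. Perp, a membrane protein of desmosomes that is also induced in p53-driven cell death, was above it only with TGF-β1 plus CCG1423. Pmaip1 (Noxa, an inhibitor of Bcl-2 family survival proteins), the death receptor Fas and the lysosomal protein Dram1 were well above background on 0 arrays and are not compared.

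**Figure D1:**
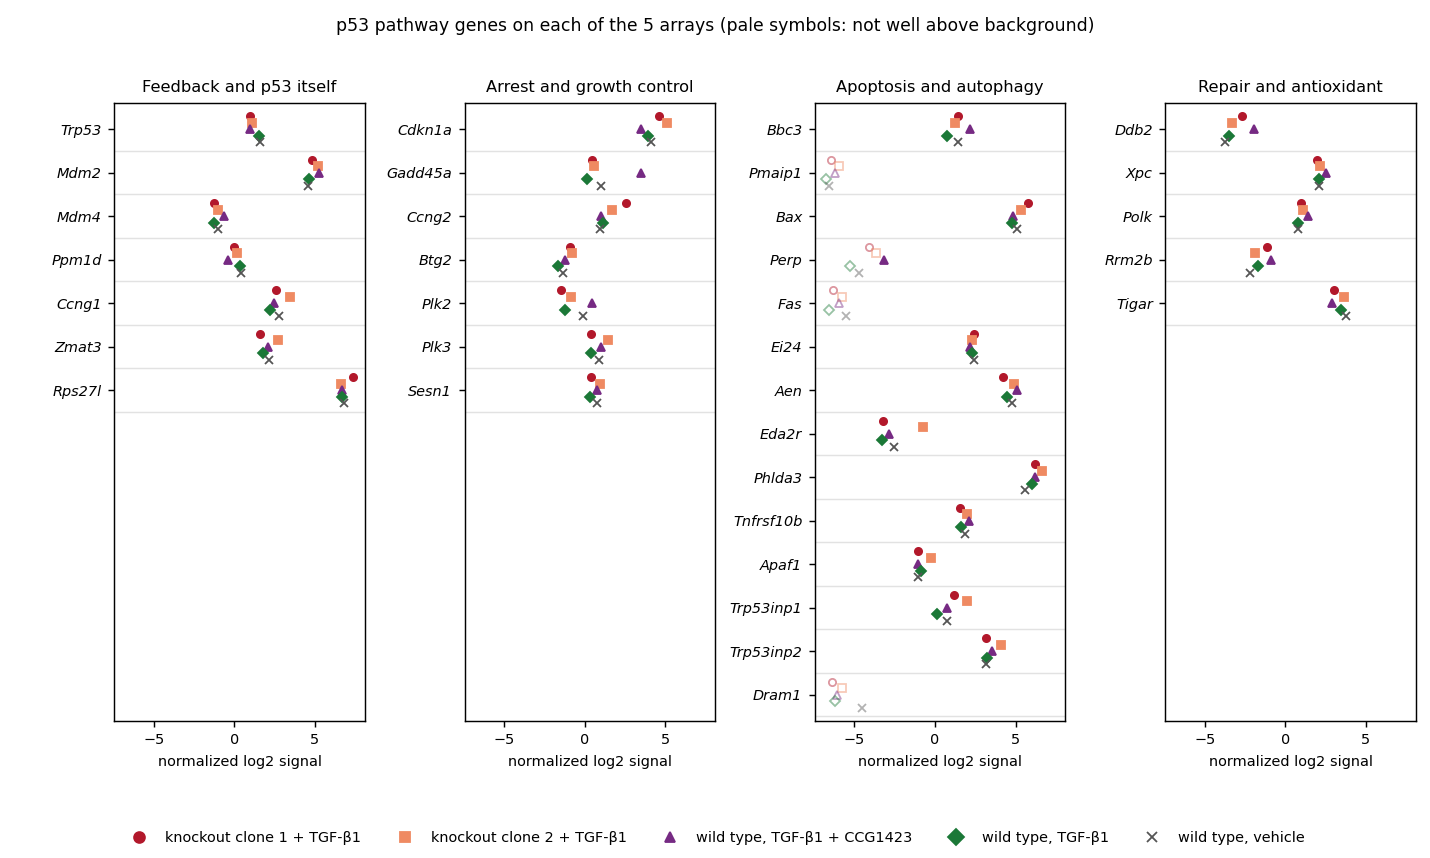
Normalized log2 signal (x axis) of each of the 33 genes on each array, in 4 panels by class, with 1 symbol per array and pale symbols where the probe was not well above background. Gadd45a stands apart with TGF-β1 plus CCG1423 at 3.52, Eda2r in clone 2 at -0.72 and Ccng2 in clone 1 at 2.55.

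In the class of p53 and its feedback, the transcript of p53 itself was lower on the 3 arrays of knockout or CCG1423-treated cells. Trp53 had levels of 0.95 in clone 1, 1.13 in clone 2, 0.98 with TGF-β1 plus CCG1423, 1.52 with TGF-β1 and 1.60 with vehicle. Both wild-type arrays without CCG1423 thus lay above the other 3 arrays. The difference of the clones from wild type was -0.49 on the log2 scale (SE 0.29, limma adjusted p = 1, n = 2 against 1). Ppm1d, the Wip1 phosphatase that switches off p53 and its kinases, had levels of 0.00 in clone 1, 0.14 in clone 2, -0.41 with TGF-β1 plus CCG1423, 0.33 with TGF-β1 and 0.40 with vehicle. Its array with vehicle and that with TGF-β1 alone were again above the other 3. Trp53 and Ppm1d were the only members lower than wild type in both clones.

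The Mdm genes did not share that split. Mdm2, the ubiquitin ligase of p53, had levels of 4.79 in clone 1, 5.21 in clone 2, 5.24 with TGF-β1 plus CCG1423, 4.66 with TGF-β1 and 4.58 with vehicle. Its differences from TGF-β1 alone were 0.13 in clone 1, 0.55 in clone 2 and 0.58 with CCG1423. For Mdm4, the partner of Mdm2, levels were -1.26 in clone 1, -1.04 in clone 2, -0.65 with TGF-β1 plus CCG1423, -1.25 with TGF-β1 and -0.99 with vehicle. Both genes were thus highest with CCG1423, and the clones lay on either side of TGF-β1-treated wild type for Mdm4.

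Cyclin G1, a p53 target that acts with phosphatase PP2A on Mdm2, separated the clones. Ccng1 had levels of 2.56 in clone 1, 3.48 in clone 2, 2.48 with TGF-β1 plus CCG1423, 2.22 with TGF-β1 and 2.77 with vehicle. It was 1.27-fold higher than wild type in clone 1 and 2.40-fold higher in clone 2 (mean log2 difference 0.81, SE 0.38, limma adjusted p = 0.918). Zmat3, an RNA-binding protein and direct p53 target, had levels of 1.57 in clone 1, 2.70 in clone 2, 2.08 with TGF-β1 plus CCG1423, 1.80 with TGF-β1 and 2.15 with vehicle, so that clone 1 lay below wild type and clone 2 above it. Rps27l, a ribosomal protein homologue that acts on Mdm2, went the other way, with 7.38 in clone 1 against 6.62 to 6.81 on the other 4 arrays.

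In the arrest class, p21 was highest in the knockout clones and lowest with CCG1423. Cdkn1a, which encodes this inhibitor of cyclin-dependent kinases, had levels of 4.58 in clone 1, 5.12 in clone 2, 3.49 with TGF-β1 plus CCG1423, 3.94 with TGF-β1 and 4.14 with vehicle. Both clones lay above all 3 wild-type arrays. The clones were 1.56-fold and 2.27-fold higher than TGF-β1-treated wild type, with a mean log2 difference of 0.91 (SE 0.32, limma adjusted p = 0.593). With CCG1423 the gene was 1.37-fold lower than with TGF-β1 alone. A probe for another Cdkn1a transcript kept these directions, at -1.19 in clone 1, 0.21 in clone 2, -3.41 with TGF-β1 plus CCG1423, -2.29 with TGF-β1 and -1.48 with vehicle.

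Gadd45a was the member that differed most with CCG1423. Gadd45a, a stress-induced protein that binds p21 and PCNA and activates stress kinases, had levels of 0.45 in clone 1, 0.60 in clone 2, 3.52 with TGF-β1 plus CCG1423, 0.16 with TGF-β1 and 1.00 with vehicle. It was 10.3-fold higher with CCG1423 than with TGF-β1 alone, and 1.80-fold lower with TGF-β1 than with vehicle. Its log2 difference with CCG1423 ranked 177 among the 14057 genes kept, with levels below background ranked as measured. The polo-like kinases Plk2 and Plk3, which respond to stress, were also higher with CCG1423 and lower with TGF-β1. Plk2 had levels of -1.44 in clone 1, -0.86 in clone 2, 0.43 with TGF-β1 plus CCG1423, -1.20 with TGF-β1 and -0.13 with vehicle. It was 3.08-fold higher with CCG1423 than with TGF-β1 alone and 2.09-fold lower with TGF-β1 than with vehicle. Plk3 levels were 0.41 in clone 1, 1.44 in clone 2, 1.04 with TGF-β1 plus CCG1423, 0.39 with TGF-β1 and 0.86 with vehicle, so clone 1 and wild type with TGF-β1 were at nearly the same level.

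Ccng2 and Btg2, which also slow proliferation, were higher in both clones than on every wild-type array. Ccng2, an atypical cyclin that slows proliferation and is also a FoxO target, had levels of 2.55 in clone 1, 1.72 in clone 2, 1.02 with TGF-β1 plus CCG1423, 1.16 with TGF-β1 and 0.92 with vehicle. Over TGF-β1 alone it was 2.63-fold higher in clone 1 and 1.48-fold higher in clone 2 (mean log2 difference 0.98, SE 0.37, limma adjusted p = 0.687). Btg2, an antiproliferative cofactor of mRNA deadenylation, had -0.91 in clone 1, -0.80 in clone 2, -1.22 with TGF-β1 plus CCG1423, -1.69 with TGF-β1 and -1.35 with vehicle. Its log2 differences from TGF-β1 alone were 0.77 in clone 1 and 0.88 in clone 2 (SE of the mean difference 0.37, limma adjusted p = 0.885). Sesn1, a sestrin that restrains the growth kinase mTOR, had 0.36 in clone 1, 0.94 in clone 2, 0.79 with TGF-β1 plus CCG1423, 0.32 with TGF-β1 and 0.76 with vehicle, so clone 1 was close to TGF-β1-treated wild type and below the other 3 arrays.

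In the apoptosis and autophagy class, Trp53inp1 stood out in the knockout. Trp53inp1, a stress protein that promotes p53 phosphorylation and autophagy, had levels of 1.17 in clone 1, 1.95 in clone 2, 0.76 with TGF-β1 plus CCG1423, 0.10 with TGF-β1 and 0.74 with vehicle. Both clones were above all wild-type arrays, and TGF-β1 alone was the lowest of the 5. The clones exceeded TGF-β1-treated wild type 2.10-fold and 3.60-fold, with a mean log2 difference of 1.46 (SE 0.37, unadjusted p = 0.003 and adjusted p = 0.233 by limma). Its second probe gave log2 differences of 0.81 in clone 1 and 1.18 in clone 2. Trp53inp2, its relative in autophagy, was 4.11 in clone 2 and between 3.15 and 3.56 on the other 4 arrays.

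Among the mitochondrial death genes, Bax and Bbc3 were higher than wild type in both clones. Bax, whose product permeabilizes the outer mitochondrial membrane, had levels of 5.74 in clone 1, 5.36 in clone 2, 4.85 with TGF-β1 plus CCG1423, 4.78 with TGF-β1 and 5.08 with vehicle. Both clones lay above all wild-type arrays (mean log2 difference from TGF-β1 alone 0.77, SE 0.31, limma adjusted p = 0.737). Bbc3 encodes Puma, which frees Bax by binding Bcl-2 family survival proteins. Its levels were 1.44 in clone 1, 1.25 in clone 2, 2.14 with TGF-β1 plus CCG1423, 0.77 with TGF-β1 and 1.44 with vehicle. It was 2.58-fold higher with CCG1423 than with TGF-β1 alone, and TGF-β1 alone was again the lowest array. Apaf1, the scaffold that activates caspases downstream of Bax, was -0.26 in clone 2 and between -1.09 and -0.90 on the other 4 arrays by its brighter probe. Its other probe had the clones nearly level, at -2.67 in clone 1 and -2.66 in clone 2, against -3.18 with TGF-β1 alone. The probes thus disagree on a difference between the clones. That dimmer probe also gave a CCG1423 difference of 1.83, against -0.17 by the brighter one, so the direction for Apaf1 with CCG1423 is not settled.

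Among the receptors and the rest of the class, Eda2r had the widest range over the arrays. Eda2r, a receptor of the TNF receptor family and a p53 target, had levels of -3.21 in clone 1, -0.72 in clone 2, -2.84 with TGF-β1 plus CCG1423, -3.29 with TGF-β1 and -2.54 with vehicle. Clone 2 was thus 5.91-fold above wild type, while clone 1 was 1.05-fold above it (SE of the mean difference 0.85, limma adjusted p = 1). Another Eda2r probe, above background only in clone 2 and with TGF-β1, read -3.12 and -1.52 there, so the probes disagree. Tnfrsf10b, the receptor of the death ligand TRAIL, ranged between 1.52 in clone 1 and 2.11 with TGF-β1 plus CCG1423 by its brighter probe, and between -3.03 in clone 1 and -1.81 in clone 2 by the other. Aen, an apoptosis-enhancing nuclease, was highest with CCG1423 at 5.11, against 4.44 with TGF-β1 alone, a direction shared by all 3 of its probes. Phlda3, a repressor of the survival kinase Akt, ranged between 5.61 with vehicle and 6.61 in clone 2, and Ei24, an endoplasmic reticulum protein of autophagy, between 2.15 with CCG1423 and 2.44 with vehicle. Perp was -3.15 with TGF-β1 plus CCG1423 and -5.27, below background, with TGF-β1 alone, which made it at least 2.49-fold higher with CCG1423. It entered that comparison only through the array where it was high, and its log2 difference of 2.12 was 0.52 with normexp background correction.

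In the repair class, the genes for recognition of DNA damage and supply of nucleotides were higher with CCG1423. Ddb2, which recognizes ultraviolet lesions, had levels of -2.68 in clone 1, -3.30 in clone 2, -1.96 with TGF-β1 plus CCG1423, -3.52 with TGF-β1 and -3.76 with vehicle. It was 2.94-fold higher with CCG1423 than with TGF-β1 alone, a log2 difference of 1.56 that was 0.80, under 2-fold, with normexp background correction. Rrm2b, the p53-induced subunit of ribonucleotide reductase, had -1.13 in clone 1, -1.88 in clone 2, -0.92 with TGF-β1 plus CCG1423, -1.71 with TGF-β1 and -2.22 with vehicle. The array with CCG1423 was the highest for both genes and vehicle the lowest. Xpc, the damage sensor of nucleotide excision repair, was 2.54 with CCG1423 and between 1.95 and 2.15 elsewhere, and Polk, a translesion polymerase, was 1.37 with CCG1423 and between 0.76 and 1.07 elsewhere. Tigar, a phosphatase that turns glucose use towards antioxidant defence, had the opposite order, lowest with TGF-β1 plus CCG1423 at 2.92 and highest with vehicle at 3.75. Its clones lay on either side of TGF-β1-treated wild type, with log2 differences of -0.48 in clone 1 and 0.18 in clone 2.

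The knockout was compared with wild type under TGF-β1 to ask what loss of Tmsb4x did to these genes. Most members were somewhat higher in the clones, clone 2 more than clone 1, and few by 2-fold. Of the 29 members kept, 25 were above 0 by the mean of both clones and 4 were below it, against 49.5% of all 13729 genes kept that were above 0. Above 0 in both clones were 16 members (all genes: 32.5%). The median of the members was 0.33 on the log2 scale, against -0.01 for all genes, and was 0.09 in clone 1 and 0.48 in clone 2. At 2-fold or more in both clones, 1 member was higher, Trp53inp1, and 0 were lower, against 0.699% higher and 1.58% lower among all genes. The 2-fold shares of all genes, here and in the other comparisons, include genes above background on only 1 side, unlike these 29 members. Among the 12326 genes above background on both sides, 79 were higher and 53 lower in both clones. In clone 1 the members at least 2-fold higher were Trp53inp1 and Ccng2 (2 of 29, against 2.77% of all genes), and in clone 2 they were Trp53inp1, Eda2r, Ccng1, Cdkn1a and Plk3 (5 of 29, against 2.77%).

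By limma, with Benjamini-Hochberg adjustment over all 13729 genes, 0 members passed the threshold of 0.05, against 0.233% of all genes. At an unadjusted p under 0.05 there were 4 members (Trp53inp1, Cdkn1a, Ccng2 and Bax), against 5.78% of all genes. The fit has 1 residual degree of freedom, from the spread between both clones. Each gene's spread is then drawn by limma towards a trend fitted over all genes kept. The SEs and p-values given here are these moderated values, not the clones' own spread. By class, the median was 0.32 for p53 and its feedback, 0.54 for arrest, 0.37 for apoptosis and autophagy and 0.21 for repair. All 7 arrest genes and all 10 apoptosis genes kept were above 0 by the mean (all genes: 49.5%), 6 of each in both clones (all genes: 32.5%). Plk2 (0.04) and Ei24 (0.05) were barely above it. With the authors' deposited values, where the median of all genes was -0.20, Plk2 (-0.15), Ei24 (-0.15), Aen (-0.07) and Tnfrsf10b (-0.07) were below 0. Eda2r was at -0.41 with the mean over probes.

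CCG1423 was added to TGF-β1 to ask what MRTF inhibition changes in treated wild-type cells. Most members were higher with it, and several stress-responsive ones by more than 2-fold, while 7 were lower (Ppm1d, Tigar, Trp53, Cdkn1a, Apaf1, Ei24 and Ccng2). Of 30 members kept, 23 were above 0, against 46.3% of the 14057 genes kept, and the median was 0.46, against -0.05 for all genes. At 2-fold or more, 5 members were higher (Gadd45a, Plk2, Ddb2, Bbc3 and Perp) and 0 lower, against 6.01% of all genes higher and 6.98% lower. Among the 12626 genes above background on both arrays, 549 were higher and 721 lower. Perp entered the members' counts only through the CCG1423 array, where it was high, so its direction largely followed from the filter. The lowest member was Ppm1d, with a log2 difference of -0.75. Class medians were 0.26 for p53 and its feedback, 0.47 for arrest, 0.45 for apoptosis and autophagy and 0.61 for repair. With 1 array on each side there was no test, and these differences have no replicate check. The summed level of melanocyte markers was also lower with CCG1423, at 1750 against 2324 with TGF-β1 alone, and its part in the members' values was not tested.

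TGF-β1 alone was compared with vehicle in wild-type cells. Members were mostly a little lower with TGF-β1, and 1 of them by 2-fold. Of 29 kept, 7 were above 0 and 22 below it, against 42.8% of the 14145 genes kept that were above 0. The median was -0.23, against -0.05 for all genes. At 2-fold or more, 0 were higher and 1, Plk2, was lower, against 4.95% of all genes higher and 3.27% lower. Among the 12893 genes above background on both arrays, 413 were higher and 209 lower. After Plk2 (-1.06), the lowest log2 differences were those of Gadd45a (-0.85), Eda2r (-0.74), Bbc3 (-0.67), Trp53inp1 (-0.64) and Ccng1 (-0.56). Another Eda2r probe, below background with vehicle, gave 2.61, so the direction for Eda2r with TGF-β1 is not settled. The highest log2 differences were those of Rrm2b (0.50) and Phlda3 (0.44). The arrest class had the lowest median, -0.43, followed by apoptosis and autophagy at -0.26, p53 and its feedback at -0.13 and repair at -0.00. This comparison also had 1 array on each side and no test.

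**Figure D2:**
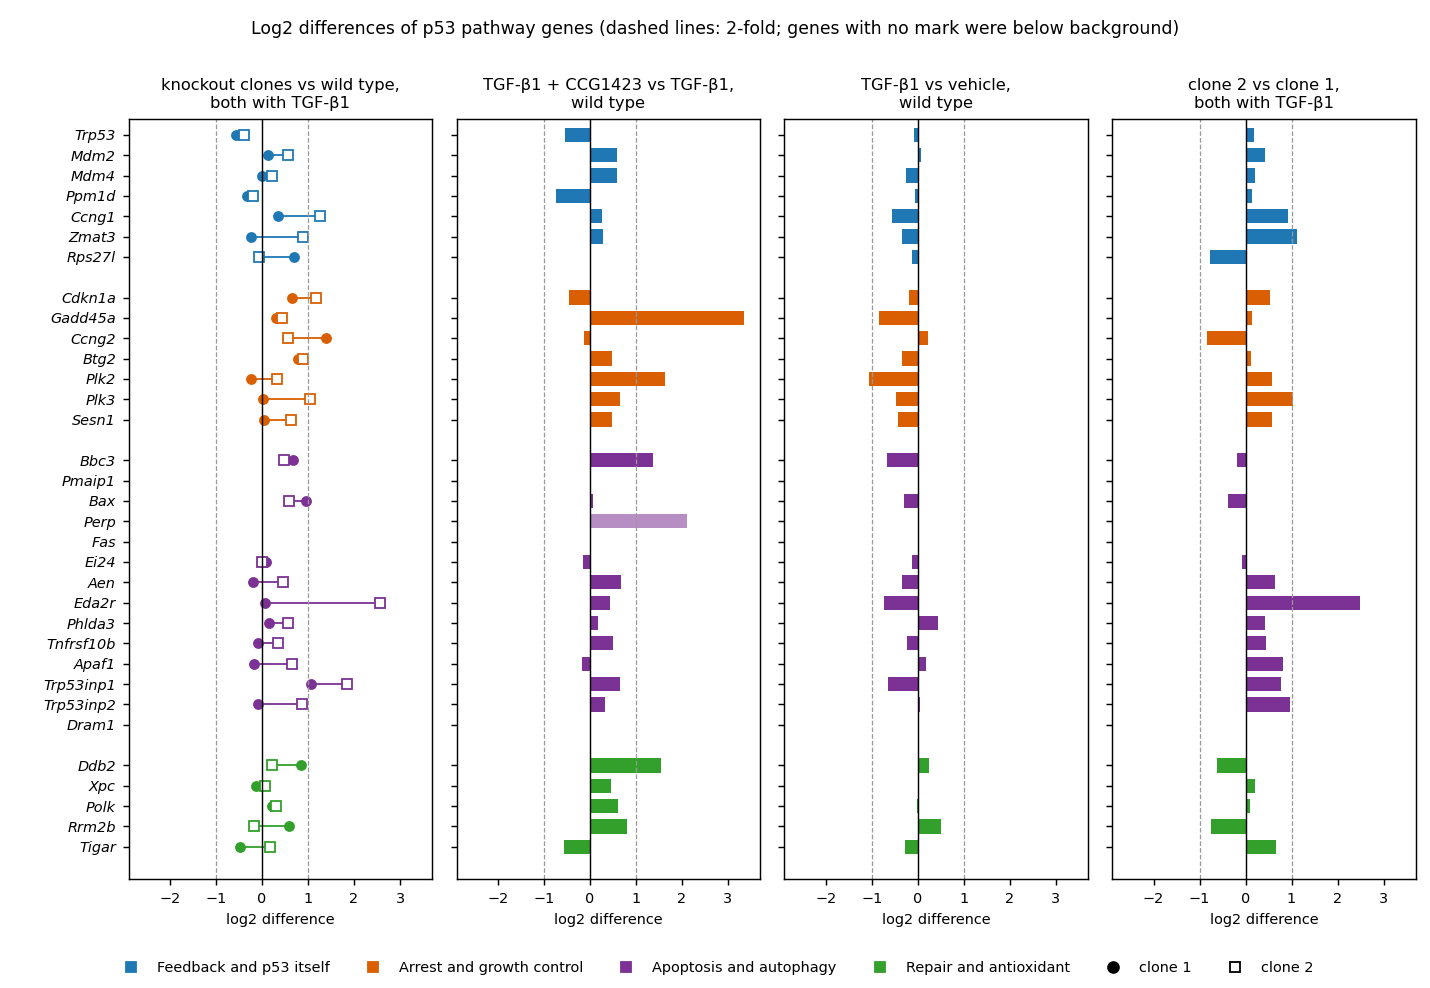
Log2 difference (x axis) of each gene kept, coloured by class, in the knockout, CCG1423, TGF-β1 and clone comparisons, with circles for clone 1, squares for clone 2, bars for single pairs of arrays, dashed lines at 2-fold and a pale bar for Perp, below background with TGF-β1 alone. Bars point mostly right with CCG1423 (23 of 30) and mostly left with TGF-β1 (22 of 29).

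The TGF-β1 array enters all 3 of these comparisons, as the baseline for the knockout and for CCG1423 and as the treated array against vehicle, so their directions are not independent. Among the 29 members on all arrays, the TGF-β1 array was the lowest of the 5 for 10 members and the highest for 0, against 13.2% and 8.64% of the 12058 genes present on every array. This array was below vehicle and both clones for 12 members (all genes: 21.7%). Clone 2 was the highest array for 11 members (all genes: 17.9%) and the CCG1423 array for another 11 (all genes: 25.2%). The 5 arrays spanned at least 2-fold for 13 of the 29 members, against 26.6% of all genes.

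Set against vehicle, which leaves the TGF-β1 array out, the members' medians lay closer to 0. With TGF-β1 plus CCG1423, 20 of 30 members were above vehicle (all genes: 46.4%), with a median of 0.16. Those at 2-fold or more were Gadd45a (5.72-fold), Ddb2 (3.47-fold), Rrm2b (2.46-fold) and Perp (at least 2.18-fold), and 0 were lower, against 7.56% of all genes higher and 8.06% lower. Perp again entered only through the CCG1423 array, where it was high. In the clones, 16 of 29 members were above vehicle by the mean (all genes: 47%), with a median of 0.19. Taken singly, the clones fell on either side of vehicle: the members' median was -0.04 for clone 1, but 0.29 for clone 2. Both clones exceeded vehicle for 11 members, and both lay below it for 8. By 2-fold in both clones, 0 members were higher and 0 lower, against 3.1% and 2.45% of all genes. Ccng2 was the highest there, at 1.63 in clone 1 and 0.80 in clone 2, and Plk2 the lowest, at -1.31 in clone 1 and -0.73 in clone 2.

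**Figure D3:**
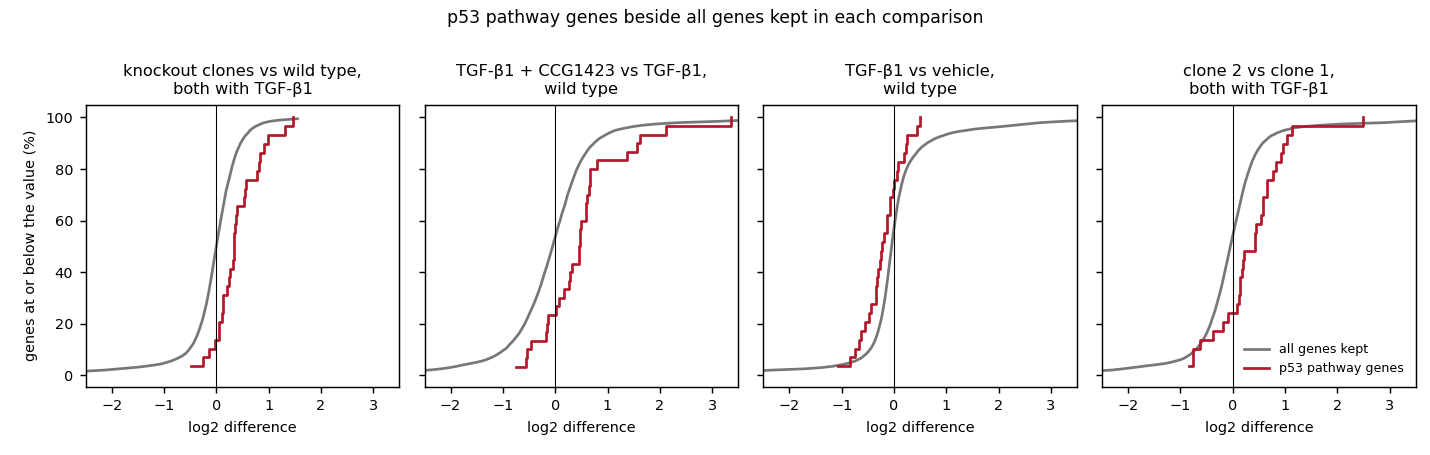
Share of genes at or below each log2 difference (y axis, percent) for the p53 pathway genes in red and all genes kept in grey, in 4 comparisons. The red curve lies right of the grey one over most of its length for knockout (medians 0.33 and -0.01), CCG1423 (0.46 and -0.05) and clone 2 against clone 1 (0.42 and -0.05), and left of it for TGF-β1 (-0.23 and -0.05).

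The clones also differed from each other. Clone 2 was above clone 1 for 22 of 29 members, against 45.8% of the 13849 genes kept, with a median of 0.42. At 2-fold or more, Eda2r (5.61-fold), Zmat3 (2.19-fold) and Plk3 (2.04-fold) were higher in clone 2 and 0 members were lower, against 4.24% of all genes higher and 3.34% lower. Clone 2 was below clone 1 for Ccng2 (-0.83), Rps27l (-0.76), Rrm2b (-0.75), Ddb2 (-0.62), Bax (-0.38), Bbc3 (-0.19) and Ei24 (-0.08). Since each clone is 1 array, the spread within a clone is unknown.

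Where a member had several probes above background, they mostly gave one direction. Of 15 such members, all probes had the same sign in 13 for TGF-β1 (not in Mdm2 and Xpc) and in 12 for CCG1423 (not in Apaf1, Bax and Rps27l). They also had it in 13 for clone 1 (not in Apaf1 and Mdm2) and in 13 for clone 2 (not in Ei24 and Mdm4). Eda2r, whose probes disagree, is not among these 15, since its other probes were below background on some or all arrays.

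As a list, further p53 targets lay close to 0 in the knockout and with CCG1423, and a little lower with TGF-β1. Of 30 other p53 targets listed, 29 were on the array and 26 were kept for the knockout, with a median of -0.00 (13 above 0 and 13 below). Their medians were 0.03 with CCG1423 and -0.12 with TGF-β1. With TGF-β1, 9 of 26 were above 0, against 42.8% of all genes, whose median was -0.05. Ephx1, an epoxide hydrolase, was 2.03-fold higher than wild type in clone 1 and 3.26-fold higher in clone 2 (limma adjusted p = 0.253), and 2.57-fold lower with TGF-β1 than with vehicle. Gdf15, a stress cytokine, had levels of -0.38 in clone 1, -2.76 in clone 2, 2.22 with TGF-β1 plus CCG1423, -0.76 with TGF-β1 and 0.36 with vehicle. It was thus 7.91-fold higher with CCG1423 than with TGF-β1 alone, and 2.17-fold lower with TGF-β1 than with vehicle. Ak1, an adenylate kinase, had the opposite course, 2.67-fold lower with CCG1423 and 7.44-fold higher with TGF-β1. The lipid transfer protein gene Pltp was 3.55-fold higher with CCG1423, and Sfn, which encodes the arrest protein 14-3-3 sigma, was 2.18-fold lower.

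Upstream of p53, 15 of 16 listed kinases and cofactors were kept, with medians of -0.07 in the knockout, 0.01 with CCG1423 and -0.15 with TGF-β1 (1 of 15 above 0, against 42.8% of all genes). Chek1, a checkpoint kinase, was 2.08-fold lower with CCG1423. Cdkn2a, whose Arf product blocks Mdm2, was well above background on 0 arrays. Cell cycle genes that p53 represses through p21 and the DREAM complex were lower in 17 of 20 cases in both clones (all genes: 32.4%), with a median of -0.37 in the knockout. They were lower in 19 of 20 cases with CCG1423 (all genes: 53.7%), with a median of -0.73, and had a median of -0.02 with TGF-β1. The ribonucleotide reductase subunit gene Rrm2 was 3.19-fold lower and the replication helicase gene Mcm5 2.57-fold lower with CCG1423. Beside these values, Cdkn1a was higher than wild type in both clones and lower with CCG1423 than with TGF-β1 alone.

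Lists of other stress pathways that share targets with p53 are given beside the members. Of 20 genes of the ATF4-CHOP stress response, 10 were 2-fold higher or more and 0 lower with CCG1423, against 6.01% and 6.98% of all genes, with a median of 0.95. Ddit3, which encodes CHOP, was 13.7-fold higher and Nupr1, a stress-induced chromatin protein, 10.2-fold higher. With TGF-β1 the list had a median of -0.37, Ddit3 was 3.23-fold lower and the cystine transporter gene Slc7a11 3.62-fold lower, and in the knockout the median was 0.05. Of 15 FoxO-related genes, 13 were above 0 with CCG1423 (all genes: 46.3%), with a median of 0.30, and the medians were 0.06 in the knockout and 0.01 with TGF-β1. The part of either pathway in the values of the members was not tested.

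**Figure D4:**
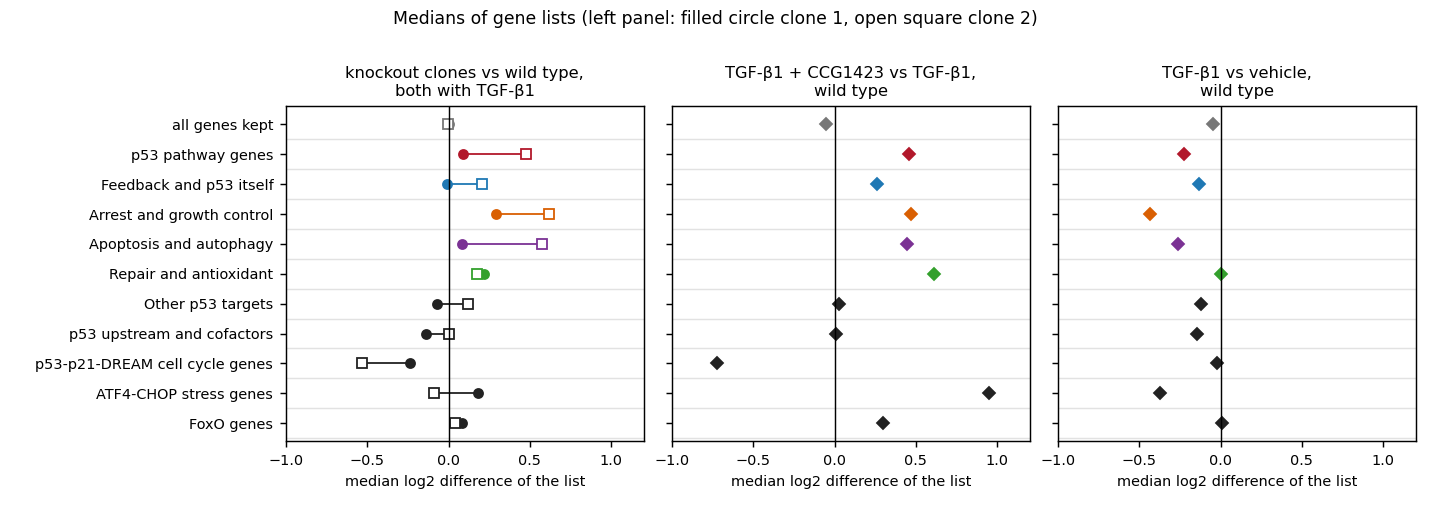
Median log2 difference (x axis) of the p53 pathway genes, their 4 classes, 5 other lists and all genes kept, in the knockout (circles for clone 1, squares for clone 2), CCG1423 and TGF-β1 comparisons. The ATF4-CHOP list (0.95) lies furthest right and the cell cycle list (-0.73) furthest left with CCG1423. The other p53 targets lie near 0 in the knockout and CCG1423 panels and at -0.12 with TGF-β1.

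Members with and without the promoter half-site had similar medians in the knockout. The 12 with a match had a median of 0.33, with 10 above 0, and the 11 measured members without one had a median of 0.40, also with 10 above 0. With CCG1423 the medians were 0.17 with a match and 0.45 without, and with TGF-β1 they were -0.17 with a match and -0.27 without. The genes with a match that were not above 0 in the knockout were Trp53 and Ppm1d. The 6 genes with printed sites were those with the largest knockout differences, so their being higher in the clones followed from that choice. Among them, Cdkn1a, Ccng1 and Bax were 1.27-fold higher or more in each clone. Gadd45a, with the site nearest its start among these 6, was 1.23-fold higher in clone 1 and 1.36-fold higher in clone 2. Mdm2 was 1.10-fold higher in clone 1 and 1.47-fold higher in clone 2, and Sesn1 was 1.03-fold higher in clone 1 and 1.53-fold higher in clone 2.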

How the data were processed

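RNA of 5 B16F1 cultures was measured on Agilent arrays with 1 dye. The deposited intensity is the processed signal of Agilent Feature Extraction 12.0.3.1 (per the submitters' processing notes), from which the software had subtracted background and a spatial trend on each array, per the file headers. The same software set the 0 or 1 flags for outliers, saturation and brightness over background, per the file headers. Because the headers refer to an older mouse build, their coordinates were not used. The authors' deposited value table holds the same intensity times a constant per array; the rule behind the constants is not given in the sources used here.

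Control spots and outlier spots were left out. The log2 signal was averaged per probe and the array's 75th percentile subtracted. RefSeq accessions named 32988 of 56595 probes (22907 genes, table of assembly GRCm38.p6); the probe with the highest mean stood for a gene. A gene was kept if its probe passed the background flag on all arrays of either side. Where only 1 side passed, the other level was raised to the dimmest passing signal on that array if lower, and the fold is written "at least". Single arrays were compared by fold, with no test. For the knockout, lmFit and eBayes (with trend) of limma 3.58.1 (R 4.3.3) were fitted to 5 arrays in 4 groups, with Benjamini-Hochberg adjustment over all genes kept, after a test on simulated data. Python 3.11.15, pandas 2.3.3, numpy 2.4.6 and matplotlib 3.10.9 served for the rest. Alternatives were normexp background correction (offset 50, on median signals, since the files hold no mean signal), quantile normalization, the deposited table, other filters, the mean over probes, 1 clone left out, the 3 arrays with TGF-β1 alone, no variance trend and, chosen after seeing the data, centring on the median of all genes. The members and lists were chosen with earlier results of these data known. The text names all members, and of each other list up to 2 highest and 2 lowest genes at 2-fold or more; Cdkn2a was named after its values were seen.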

Additional observations from a re-analysis of the deposited data

How the results depend on the processing

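The members' medians kept their direction under every alternative run, between -0.25 and -0.13 for TGF-β1, 0.33 and 0.51 for CCG1423, and 0.13 and 0.34 for the knockout, and were 0.09 and 0.48 with 1 clone left out. Counts at 2-fold moved more, and the cause was not tested. For TGF-β1 the 1 member became 0 under normexp and 0 with the deposited table. For CCG1423 the 5 became 3 under normexp (Gadd45a, Plk2 and Bbc3), where Ddb2 was at 0.80 and Perp at 0.52 on the log2 scale. For the knockout the 1 member became 0 under normexp, with the deposited table and with the mean over probes, and 2 to 5 in a single clone. By limma, 0 members became 1 without the filter (Trp53inp1, adjusted p = 0.00183; 0.233 to 0.709 under the others). Over all genes, limma's 32 calls became 85 under normexp, 0 under quantile normalization, 220 with the deposited table, 279 without the filter, 3 with the strict filter, 0 with the mean over probes, 75 with 3 arrays and 184 without the trend. The cause of these shifts was not tested either. The deposited table moves the median of all genes to 0.06 for TGF-β1, -0.18 for CCG1423 and -0.20 for the knockout. Its split of genes at 2-fold, higher and lower, was 653 and 1298 for CCG1423 (845 and 981 as reported) and 51 and 271 for the knockout (96 and 217). Of 88 differences of single members, 22 changed sign under at least 1 alternative, of which 1 was at least 2-fold: Eda2r in the knockout, -0.41 with the mean over probes. Leaving out a clone left no residual degrees of freedom, so it gave values and no test. No paired analysis was possible because the groups compared share fewer than 2 replicate numbers.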
